A study of Mus musculus with 65 samples.

Results

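Dendritic cells that lack MyD88 were compared with wild-type cells before any stimulus was given. The samples were chosen by their titles: 3 unstimulated MyD88KO libraries and 6 unstimulated wild-type libraries, 9 of the 65 polyA RNA libraries of the series. All came from bone marrow derived dendritic cells of C57BL/6 background, all were labelled TrifWT, IfnarWT and Suv39h1WT, and all were the 0 h point of a time course with 100 ng/mL lipopolysaccharide (LPS), which was sampled again at 2 h and 4 h. The MyD88KO libraries and the wild-type libraries each carry cohort numbers 1 to 3, with 1 MyD88KO library and 2 wild-type libraries per cohort. Library numbers fall into 2 sets. The MyD88KO libraries (17, 21 and 27) and 3 wild-type libraries (1, 5 and 11) have numbers up to 30, called the low set here, and the other 3 wild-type libraries (33, 34 and 35) lie above 30, called the high set. MyD88KO cells were therefore compared with all 6 wild-type libraries and with the 3 of the low set alone. Against the high set, genotype and library set cannot be told apart. The time course also holds libraries labelled MyD88WT and TrifKO, 3 at each time, all numbered above 30. They were fitted together with the others and are named below in places as a further reference. The labels do not give what the sets stand for, the part of Myd88 that was deleted or the age of the mice. Nor do they give whether wild-type libraries of 1 cohort share cells, so p-values measure only the spread between libraries. In the edgeR tests that spread was estimated over all 35 libraries of the time course, not over the 9 alone. Genes took up 46.5 to 59.2 M counts per MyD88KO library and 43 to 65.3 M per wild-type library. Xist, which coats the silenced X of female cells, was at 457 to 1123 CPM (a gene's counts relative to all gene counts of its library, TMM-scaled) in cohorts 1 and 2 of both genotypes and at most 0.0584 CPM in cohort 3 of both, so the sexes were matched by cohort.

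MyD88 is the adaptor protein that joins most Toll-like receptors, and the receptors of the interleukin-1 family, to the IRAK kinases and TRAF6, and through them to NF-kB and MAP kinases. TLR4, the receptor of LPS, also signals through a second adaptor, TRIF, which leads to type I interferon. Dendritic cells take up antigen and present it to T cells, and microbial signals turn on their cytokine, chemokine and maturation genes. In the absence of a stimulus these genes are kept low, and the comparison asks how much of that resting state differs without MyD88.

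Counts on the targeted gene remained in MyD88KO cells, at a lower level. Myd88 (chromosome 9, 119335934 to 119341411, minus strand, GRCm38) had 48.6, 46.2 and 48.2 CPM in MyD88KO libraries 1 to 3, against a lowest value of 72.2, a median of 74 and a highest of 80.7 CPM in the 6 wild-type libraries. The groups did not overlap, and Myd88 fell by 0.66 ± 0.085 on the log2 scale (SE; edgeR quasi-likelihood test with Benjamini-Hochberg adjustment, adjusted p = 8.04e-05). The same difference against the low set was -0.66 (adjusted p = 0.00103). The span of Myd88 overlaps those of Acaa1a and Slc22a14, 1 on the same strand and 1 on the other. It is not given whether reads were counted by strand, which would not separate genes on the same strand. Acaa1a, a peroxisomal thiolase gene, lay at 71.3 ± 7.34 CPM in MyD88KO cells and 64.8 ± 5.55 CPM in wild-type cells (SD, n = 3 and 6) and did not pass (adjusted p = 0.984).

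No other core member of the pathway passed the test at 0 h. Of 23 adaptor and kinase genes of TLR signalling, Myd88 was the only one that passed the test, 18 lay below 0, and the list's median was -0.078 against 0.00091 over all 14475 genes tested. Ticam1, the gene of TRIF, lay at 27.1, 29.8 and 36.9 CPM in MyD88KO cells and between 27.1 and 35.6 CPM in wild-type cells, and the groups overlapped. Tirap, the adaptor that brings MyD88 to TLR4, differed by 0.16 ± 0.17 and the kinase gene Irak4 by -0.046 ± 0.094. Traf6, the ubiquitin ligase below the IRAK kinases, differed by -0.25 ± 0.13. None of these 4 passed. The largest difference in the list was that of Ikbke, a kinase gene induced by NF-kB, at -1.43 ± 0.49 (adjusted p = 0.56), with 22.6, 26.6 and 7.44 CPM in MyD88KO cells against 19 to 109 CPM in wild-type cells. It stood next to a difference of -1.37 between the low and the high set of wild-type cells themselves. Traf3, which links TRIF to interferon induction, was lower in all 3 MyD88KO libraries (49.5 to 51.9 CPM) than in all 6 wild-type libraries (54.7 to 82.5 CPM), by -0.44 ± 0.12 (adjusted p = 0.264), and it too differed between the wild-type sets (-0.48, adjusted p = 0.013). Of 18 alternative fits against all wild type, 3 called Traf3 and 1 called Ikbke. None of the 12 against the low set called either gene.

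Receptors upstream of MyD88 were present in both genotypes. Of 18 Toll-like receptor and co-receptor genes none passed the edgeR test (1 at an unadjusted p of 0.05, Tlr1) and none passed in DESeq2. Tlr4 lay at 62.7, 93.7 and 66.2 CPM in MyD88KO cells and between 57.5 and 73.4 CPM in wild-type cells. Tlr2, which recognises bacterial lipoproteins, differed by -0.41 ± 0.30 and Tlr9, which recognises unmethylated DNA, by -0.09 ± 0.21. Tlr1, the partner of Tlr2, lay at 5.37, 2.31 and 1.28 CPM in MyD88KO cells against 2.74 to 21.6 CPM in wild-type cells (-1.70 ± 0.75, adjusted p = 0.839), and the groups overlapped. Of the 8 interleukin-1 family receptor genes 7 lay above 0 (median 0.31; 0.22 against the low set) and none passed in edgeR or DESeq2, with 1 at an unadjusted p of 0.05. The highest was Il1rl1, the IL-33 receptor gene, at 45.9, 22.9 and 27.1 CPM in MyD88KO cells against 8.15 to 29.8 CPM in wild-type cells (0.74 ± 0.56, adjusted p = 0.984). Il1rap, the co-receptor of the family, differed by 0.39 ± 0.18.

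Few genes passed the test between the unstimulated genotypes. Against all 6 wild-type libraries 9 of 14475 genes were called at an adjusted p of 0.05 (0.0622%), 4 higher (0.0276%) and 5 lower (0.0345%), and 16 were called with the cohort number as a block, all 9 among them. Against the low set 6 of 14696 genes were called (0.0408%), 3 higher and 3 lower (0.0204% each). Tfcp2l1, Xcr1, Myd88 and Glb1 were called in both comparisons. By the same fit the low and the high set of wild-type cells differed in 47 genes (0.32%), 45 of them lower in the low set (0.306%), and MyD88KO cells differed from the high set in 206 genes (1.4%), 179 of them lower (1.22%). All 9 genes were called against the high set too. A fit of only the compared groups called 4 genes against all wild type and 1 against the low set. With 1 MyD88KO library fewer, 3 genes were called without replicate 1, 3 without replicate 2 and 4 without replicate 3. Tfcp2l1, Xcr1 and Myd88 were called under all 18 alternatives tried on this comparison, Glb1 under 14, Cxcl1 under 12, Tgfbr2 and H2-Q4 under 5, Ccr9 under 12 of the 17 that gave it a p-value and Camk2b under 3 of 17.

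Tfcp2l1 differed most. It encodes a transcription factor of the CP2 family, best known from naive embryonic stem cells and from kidney and gland epithelium. The gene (chromosome 1, 118627945 to 118685168, plus strand) had 169, 121 and 110 CPM in MyD88KO libraries 1 to 3, and a lowest value of 0.0538, a median of 0.111 and a highest of 0.35 CPM in wild-type libraries. It rose by 9.84 ± 0.42 on the log2 scale, a 919-fold difference on the fitted scale (adjusted p = 2.1e-16), and by 10.08 against the low set. The 3 libraries labelled TrifKO at 0 h held 0.0713 to 0.131 CPM, and the 3 wild-type libraries of another experiment of the series held 0.0461 to 0.161 CPM. Of the other 5 tested genes of the grainyhead and CP2 families none was called in edgeR. DESeq2 called Grhl1 lower against all wild type but not against the low set. Tfcp2 and Ubp1, the closest relatives, lay at 7.31, 7.35 and 8.1 CPM and at 81.7, 80.8 and 85.2 CPM in MyD88KO cells, within their wild-type ranges of 6.53 to 8.63 CPM and 75.1 to 92.3 CPM.

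Xcr1, the receptor for the chemokine XCL1 and a marker of the cross-presenting type 1 dendritic cell, was the next largest of the rises. It had 7.44, 6.89 and 9.46 CPM in MyD88KO libraries, against a lowest value of 0.845, a median of 1.09 and a highest of 1.78 CPM in wild-type libraries. Every MyD88KO library was above every wild-type library, and the rise was 2.75 ± 0.22 (adjusted p = 1.34e-09; 2.78 against the low set). Other marker genes of type 1 dendritic cells were not called. Clec9a averaged 5.16 ± 2.51 CPM in MyD88KO cells and 5.82 ± 3.04 CPM in wild-type cells (SD, n = 3 and 6). Batf3, a transcription factor these cells need, averaged 12.6 ± 5.53 and 19.9 ± 6.15 CPM in MyD88KO and wild-type cells (adjusted p = 0.793), and Irf8 averaged 188 ± 53.4 and 268 ± 54.2 CPM in the same order (adjusted p = 0.893).

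The remaining rises were Camk2b and Tgfbr2. Camk2b, a subunit gene of calcium and calmodulin dependent kinase II known from neurons, had 3.1, 2.36 and 3 CPM in MyD88KO cells, against 0.167 to 1.06 CPM with a median of 0.293 in wild-type cells (2.71 ± 0.55, adjusted p = 0.0486). Tgfbr2, the ligand-binding receptor of TGF-beta, had 93.5, 105 and 103 CPM in MyD88KO cells, against 52.5 to 63.3 CPM with a median of 58.3 in wild-type cells (0.80 ± 0.16, adjusted p = 0.0486). Neither gene's groups overlapped. Relative to the low set their differences were 2.43 and 0.73, and neither passed (adjusted p = 1 and 0.951). No other of the 15 TGF-beta receptor and SMAD genes was called, and the list's median was 0.017.

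The genes that fell beside Myd88 were Cxcl1, Ccr9, Glb1 and H2-Q4. Glb1, the lysosomal beta-galactosidase, had 29.6, 30 and 34.5 CPM in MyD88KO cells, against 41.3 to 57.3 CPM with a median of 46.2 in wild-type cells (-0.60 ± 0.10, adjusted p = 0.00705; -0.66 against the low set, adjusted p = 0.00264). It was the only one of 25 lysosomal hydrolase genes that passed, and the list's median was -0.09. Ccr9, a chemokine receptor of plasmacytoid dendritic cells and gut-homing lymphocytes, had 0.097, 0.107 and 0.0818 CPM in MyD88KO cells, against 0.33 to 1.24 CPM with a median of 0.514 in wild-type cells. Its groups did not overlap (-2.74 ± 0.48, adjusted p = 0.00857), and against the low set it was called with the cohort block (adjusted p = 0.00162) and not without it (-2.02, adjusted p = 0.0525). The span of Ccr9 overlaps Slc6a20a and Lztfl1 on the other strand. H2-Q4, a non-classical MHC class I gene whose reads may be shared with its near-identical H2-Q neighbours, had 91.3, 76.6 and 86.6 CPM in MyD88KO cells, against 108 to 140 CPM with a median of 135 in wild-type cells (-0.60 ± 0.12, adjusted p = 0.0486; -0.49 against the low set, adjusted p = 1).

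Fyco1 and Bmpr1a were called against the low set alone, Fyco1 under 5 and Bmpr1a under 6 of the 12 alternatives tried there, where Tfcp2l1 was called under 12, Xcr1 and Myd88 under 10 and Glb1 under 8. Fyco1, an adaptor for the transport of autophagosomes, had 49.9, 53.3 and 53.2 CPM in MyD88KO cells, against 31.9, 27.5 and 36.7 CPM in the low set (0.70, adjusted p = 0.00777). In the high set it had 40, 42.2 and 37.8 CPM, so that all MyD88KO libraries were above all wild-type libraries, while the difference from all 6 did not pass (0.53 ± 0.15, adjusted p = 0.3). Bmpr1a, a type I receptor of bone morphogenetic proteins, had 6.51, 3.73 and 4.52 CPM in MyD88KO cells and 14, 16.5 and 9.23 CPM in the low set (-1.43, adjusted p = 0.0172). The high set, at 4.97, 4.37 and 5.1 CPM, lay within the range of MyD88KO cells, and the wild-type sets themselves differed by 1.46 (adjusted p = 0.0108).

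**Figure D1:**
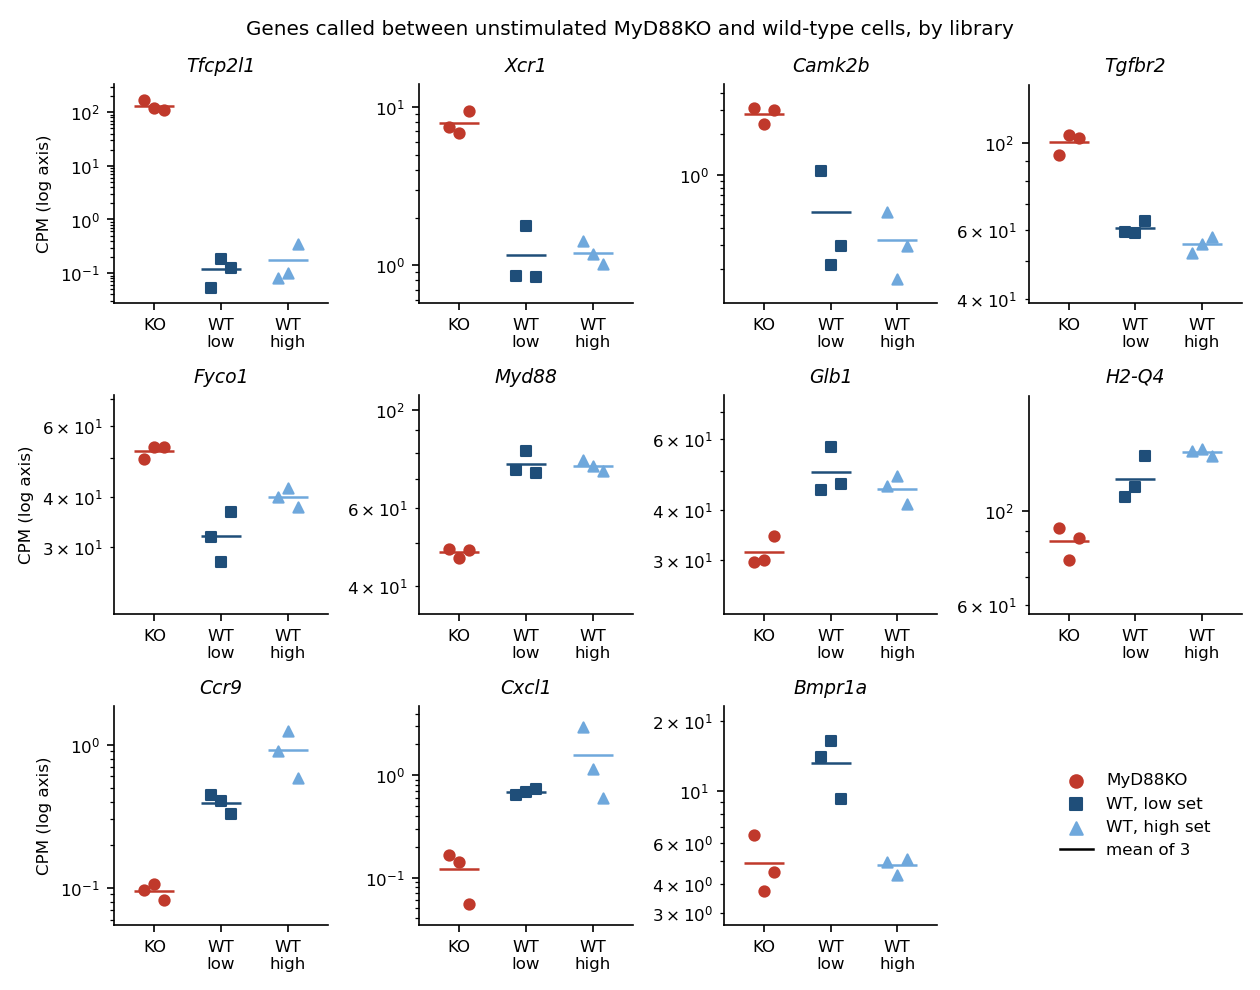
CPM on a log axis for the 11 genes called against all wild-type libraries or against the low set, with 1 point per library and a line at the mean of 3. MyD88KO libraries stand apart from both wild-type sets for 10 of the genes, while Bmpr1a in the high set (4.37 to 5.1 CPM) lies within the MyD88KO range (3.73 to 6.51 CPM).

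Several of these genes lie near Myd88 itself. A mouse that carries a targeted allele can also carry the chromosome around it from the strain in which the allele was made, so the neighbours were read by distance. Of 250 tested genes within 20 Mb of Myd88, 4 were called (1.6%), namely Xcr1, Ccr9, Glb1 and Tgfbr2, against 4 of 13341 genes on other chromosomes (0.03%). All 4 start 2 to 5 Mb from Myd88: Tgfbr2 at 3.17 Mb and Glb1 at 4.94 Mb on one side, Ccr9 at 4.34 Mb and Xcr1 at 4.52 Mb on the other, where Fyco1 also starts, at 4.51 Mb. In that window 59 genes were tested, and 8 were higher and 3 lower in every MyD88KO library than in every wild-type library. Together these are 18.6%, beside 1.47% higher and 1.77% lower of all genes tested. The 4 called genes and Fyco1 are among these non-overlapping genes, so the share is not separate from the calls. The same combined share was 3.13% on other chromosomes, 7.14% of 28 genes within 2 Mb, 5.41% of 37 genes at 5 to 10 Mb and 1.59% of 126 genes at 10 to 20 Mb. In the comparison with the low set it was 23.7% in the window and 6.47% on other chromosomes, beside 3.23% higher and 3.39% lower of all genes tested. The median absolute log2 fold change was 0.187 in the window and 0.132 on other chromosomes, and in the comparison with the low set 0.187 and 0.111.

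Other neighbours did not pass against all wild type. Tmem158 averaged 1.71 ± 0.323 CPM in MyD88KO cells and 0.602 ± 0.288 CPM in wild-type cells (SD, n = 3 and 6; 1.50 ± 0.41, adjusted p = 0.299), and it was called with a term for the library set and, against the low set, with the cohort block (adjusted p = 0.0381, against 0.379 without the block). Cdcp1, a transmembrane glycoprotein gene, averaged 1.71 ± 0.406 and 0.675 ± 0.156 CPM in MyD88KO and wild-type cells (1.33 ± 0.34, adjusted p = 0.245). Slc6a20a, which shares part of its span with Ccr9, averaged 0.0255 ± 0.0109 and 0.173 ± 0.0833 CPM in the same order (-2.68 ± 0.77, adjusted p = 0.346). None of these 3 genes' groups overlapped. Within 2 Mb none of 28 tested genes was called, with Oxsr1, a kinase gene whose start lies 0.019 Mb away, at 53.7 ± 2.08 CPM in MyD88KO cells and 45.6 ± 2.16 CPM in wild-type cells (0.23 ± 0.059, unadjusted p = 0.000412, adjusted p = 0.227). Csrnp1, an immediate early gene, lay at 36.5, 29 and 33.8 CPM in MyD88KO cells, below all wild-type libraries (38.1 to 67.9 CPM; -0.64 ± 0.20, adjusted p = 0.462). The part of the flanking chromosome in any of these differences was not tested.

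**Figure D2:**
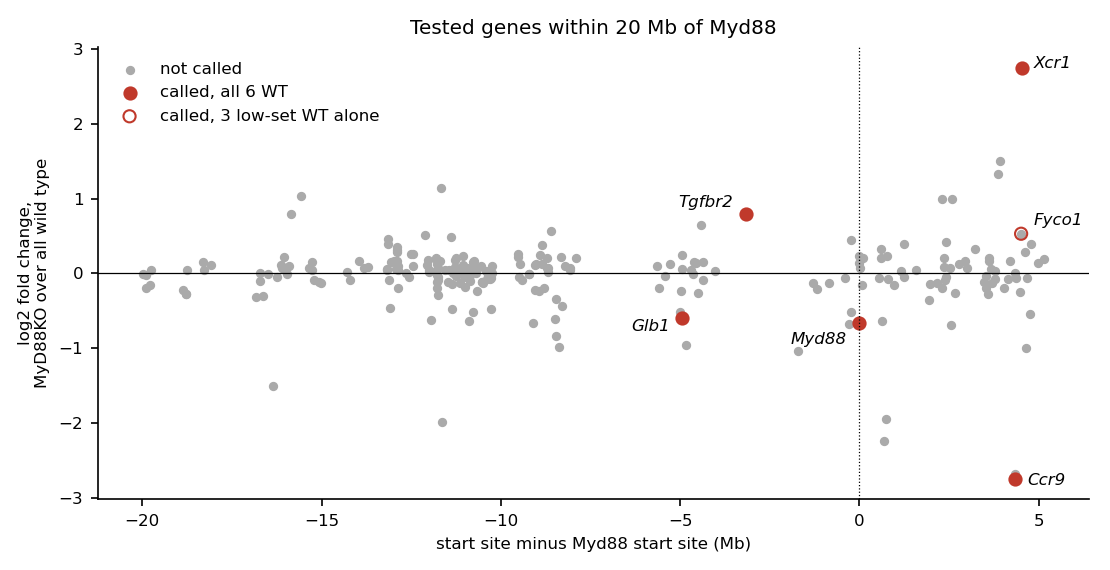
The log2 fold change of MyD88KO over all wild-type cells for each tested gene within 20 Mb of Myd88, against the distance between start sites in Mb. Called genes (filled) sit at 3.17 to 4.94 Mb on both sides of Myd88, and Fyco1 (open) was called against the low set alone.

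Chemokine genes of the Cxcl1 cluster were low at rest in both genotypes and averaged lower in MyD88KO libraries, although Cxcl1 alone passed the test. Cxcl1, the neutrophil chemokine (chromosome 5, 90891241 to 90893115, plus strand), had 0.166, 0.142 and 0.0545 CPM in MyD88KO cells, against 0.646, 0.681 and 0.734 CPM in the low set and 2.96, 1.14 and 0.603 CPM in the high set. The groups did not overlap, and Cxcl1 fell by 3.21 ± 0.59 on the log2 scale (adjusted p = 0.0164), with -2.50 against the low set (adjusted p = 0.426). Its values in MyD88KO cells rest on few reads. Cxcl1 was the only called gene of 38 inflammatory cytokine and chemokine genes. DESeq2, which called 43 genes in all against all wild type, called 5 of the list lower, namely Il1b, Cxcl1, Cxcl3, Cxcl5 and Cxcl16. Of the 12 alternatives tried against the low set, DESeq2 among them, none called Il1b or Cxcl3, and 1 called Cxcl1. Cxcl3 and Cxcl2, its neighbours in the same cluster, had 4.49, 13.5 and 5.75 CPM and 5.55, 12 and 8.44 CPM in MyD88KO cells, against 11.3 to 80.4 CPM and 12.4 to 49.5 CPM in wild-type cells. Cxcl2 did not overlap between the groups and Cxcl3 did, at differences of -1.33 ± 0.44 and -2.14 ± 0.63 (adjusted p = 0.52 and 0.374). Against the low set Cxcl2 and Cxcl3 differed by -0.63 and -1.53, and neither passed. The low set itself stood at -1.18 and -1.03 relative to the high set.

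NF-kB is known to drive these genes once a receptor is engaged, and the promoters below show the letters of its site in the genes just described and in H2-Q4. They are from RefSeq (GRCm38.p6), 5′ to 3′ on the plus strand, and capitals mark matches to GGG, any 2 bases and TTTCC on either strand, 20 bases of each flank included.
Cxcl1 chr5:90891136-90891203: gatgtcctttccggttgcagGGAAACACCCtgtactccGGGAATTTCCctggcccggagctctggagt
Cxcl2 chr5:90903782-90903850: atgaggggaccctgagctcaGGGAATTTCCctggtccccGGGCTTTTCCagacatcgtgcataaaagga
Cxcl3 chr5:90786008-90786057: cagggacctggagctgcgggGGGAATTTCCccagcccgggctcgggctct
H2-Q4 chr17:35379423-35379472: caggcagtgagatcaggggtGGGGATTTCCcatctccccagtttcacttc
Cxcl1 has matches 89 and 71 bases before its start, Cxcl2 97 and 78 bases, Cxcl3 73 bases and H2-Q4 174 bases, and no matches printed here overlap. Among all 32851 RefSeq promoters, 464 (1.41%) hold such a match in the 250 bases before the start. Of the 38 tested cytokine and chemokine genes 23 have an entry, and 7 of these hold a match. A match is a run of letters and was not tested as a site.

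Other members of the list also lay below their wild-type levels. Il1b, the gene of interleukin-1 beta, had 10.9, 10.5 and 16.9 CPM in MyD88KO cells and 12.3 to 47.7 CPM in wild-type cells (-1.34 ± 0.34, unadjusted p = 0.000476, adjusted p = 0.238), and only the lowest wild-type library fell within the MyD88KO range. Acod1, the enzyme that makes itaconate, had 24.8, 72.2 and 9.46 CPM in MyD88KO cells and 32.2 to 201 CPM in wild-type cells (-1.44 ± 0.62, adjusted p = 0.824). Over the list 36 of 38 genes lay below 0, with a median of -0.78 against all wild type and -0.39 against the low set. In 5 of the 38 every MyD88KO library was lower than every wild-type library, beside 1.77% of all genes tested. The wild-type sets differed in the same direction, since the list's median was -0.67 in the low set relative to the high set.

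The interferon-stimulated genes had the lowest median of the 20 pathway lists. These genes answer type I interferon, which resting cells make at low levels. Of 57 tested, 55 lay below 0 and none was called by edgeR. At an unadjusted p of 0.05, 34 were lower and none higher, beside 4.01% and 1.58% of all genes tested. DESeq2, which called 43 genes in all against all wild type, called 4 of the list lower (Ifit3, Ifit3b, Irf9 and Gbp2). Against the low set Ifit3 and Ifit3b were called under none of the 12 alternatives, DESeq2 among them. The list's median was -0.80 against all wild type and -0.47 against the low set, while the low set stood at -0.62 relative to the high set. In 20 of the 57 every MyD88KO library was lower than all 6 wild-type libraries (background 1.77%), and in 23 every one was lower than the 3 low-set libraries (background 3.39%). Per library, the median log2 level of the list relative to the wild-type mean was -0.82, -0.53 and -0.85 in MyD88KO cells, -0.43, -0.17 and -0.16 in the low set and 0.54, 0.39 and -0.10 in the high set. All 3 MyD88KO libraries were thus below all 6 wild-type libraries (the closest were -0.53 and -0.43), while the wild-type libraries themselves ranged from -0.43 to 0.54.

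Among single members, Ifit1 and Ifit3 had their lowest group values in MyD88KO cells. Ifit1, which binds foreign RNA caps, had 2.91, 7.98 and 3.41 CPM in MyD88KO cells, 5.99, 13.9 and 9.64 CPM in the low set and 26.5, 22.7 and 13.6 CPM in the high set (-1.70 ± 0.52, adjusted p = 0.432). Ifit3 had 3.09, 5.45 and 2.53 CPM in MyD88KO cells, 5.94, 11.5 and 7.77 CPM in the low set and 22.6, 18.5 and 10.7 CPM in the high set (-1.80 ± 0.46, adjusted p = 0.245). Within each cohort the MyD88KO library was the lowest for both genes. Ifit3b, a near-identical copy of Ifit3 with which it may share reads, and Ifi44 differed by -2.10 ± 0.53 and -1.92 ± 0.63 (adjusted p = 0.227 and 0.519). The promoters of the Ifit genes carry the interferon-stimulated response element, GAAA, any 2 bases and GAAA on either strand, in capitals in the stretches below from the same source, build and strand. Ifit3 and Ifit3b share all the letters printed.
Ifit1 chr19:34640765-34640833: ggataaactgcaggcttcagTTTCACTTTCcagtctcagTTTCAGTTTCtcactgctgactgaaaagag
Ifit3 chr19:34583353-34583436: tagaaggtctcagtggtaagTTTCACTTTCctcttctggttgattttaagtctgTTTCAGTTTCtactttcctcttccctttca
Ifit3b chr19:34607749-34607832: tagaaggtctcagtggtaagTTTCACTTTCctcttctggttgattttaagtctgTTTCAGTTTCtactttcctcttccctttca
The matches lie 104 and 85 bases before the start of Ifit1, 156 and 122 before that of Ifit3, and 188 and 154 before that of Ifit3b. Of all 32851 promoters 978 (2.98%) hold a match, and of the 43 tested interferon-stimulated genes with an entry 24 do.

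NF-kB feedback, antigen presentation and maturation genes lay below 0 to a smaller extent. Of 30 NF-kB subunit, feedback and early genes 28 lay below 0 (median -0.49, and -0.29 against the low set). The low set itself stood at -0.27 relative to the high set, with Bcl3 at -0.65 and Nfkbiz at -0.72. None was called by edgeR (18 lower at an unadjusted p of 0.05, beside 4.01% of all genes tested). DESeq2 called Bcl3 lower against all wild type, while none of the 12 alternatives called it against the low set. Bcl3, a nuclear inhibitor protein of the NF-kB family, had 20, 18.1 and 22.2 CPM in MyD88KO cells, below all wild-type libraries (26.4 to 46.1 CPM; -0.82 ± 0.19, adjusted p = 0.171). Nfkbiz, its inducible relative, had 13.9, 12.8 and 13 CPM in MyD88KO cells against 13.9 to 33.8 CPM in wild-type cells (-0.77 ± 0.29, adjusted p = 0.646). Atf3, a stress-induced repressor, differed by -0.70 ± 0.30 and the phosphatase gene Dusp2 by -0.95 ± 0.47. In 8 of the 30 genes the groups did not overlap, all with MyD88KO cells lower, beside 1.77% of all genes tested.

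All 18 MHC class I presentation genes lay below 0 (median -0.29; -0.23 against the low set, where the sets of wild type differed by -0.12), with H2-Q4 alone called in edgeR and in DESeq2. Nlrc5, the transactivator of MHC class I genes, had 28.4, 26.1 and 26.9 CPM in MyD88KO cells, below all wild-type libraries (28.7 to 68.4 CPM; -0.88 ± 0.31, adjusted p = 0.605). H2-Q7 and H2-Q6 differed by -0.79 ± 0.22 and -0.67 ± 0.18, with the same doubt about shared reads as H2-Q4. The per-library median of the list was -0.31, -0.40 and -0.27 in MyD88KO cells and between -0.075 and 0.14 in wild-type cells, and the groups did not overlap. Of 18 maturation and costimulation genes 16 lay below 0 (median -0.38, and -0.30 against the low set, where the sets of wild type differed by -0.18). None was called by edgeR (8 lower at an unadjusted p of 0.05, beside the same 4.01%), while DESeq2 called Icam1. Cd40, the costimulator engaged by T cells, had 42.7, 24.1 and 40.2 CPM in MyD88KO cells, below all wild-type libraries (44.9 to 94.1 CPM; -0.87 ± 0.29, adjusted p = 0.52). Marcksl1, a gene of mature dendritic cells, had 152, 86.2 and 107 CPM in MyD88KO cells against 160 to 288 CPM in wild-type cells (-0.87 ± 0.25, adjusted p = 0.339), and Cd83, which marks maturation, had 488, 277 and 375 CPM in MyD88KO cells against 511 to 652 CPM in wild-type cells (-0.60 ± 0.22, adjusted p = 0.646). MHC class II was evenly divided, with 6 of 12 genes below 0 and a median of -0.014, no edgeR or DESeq2 call and none at an unadjusted p of 0.05.

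**Figure D3:**
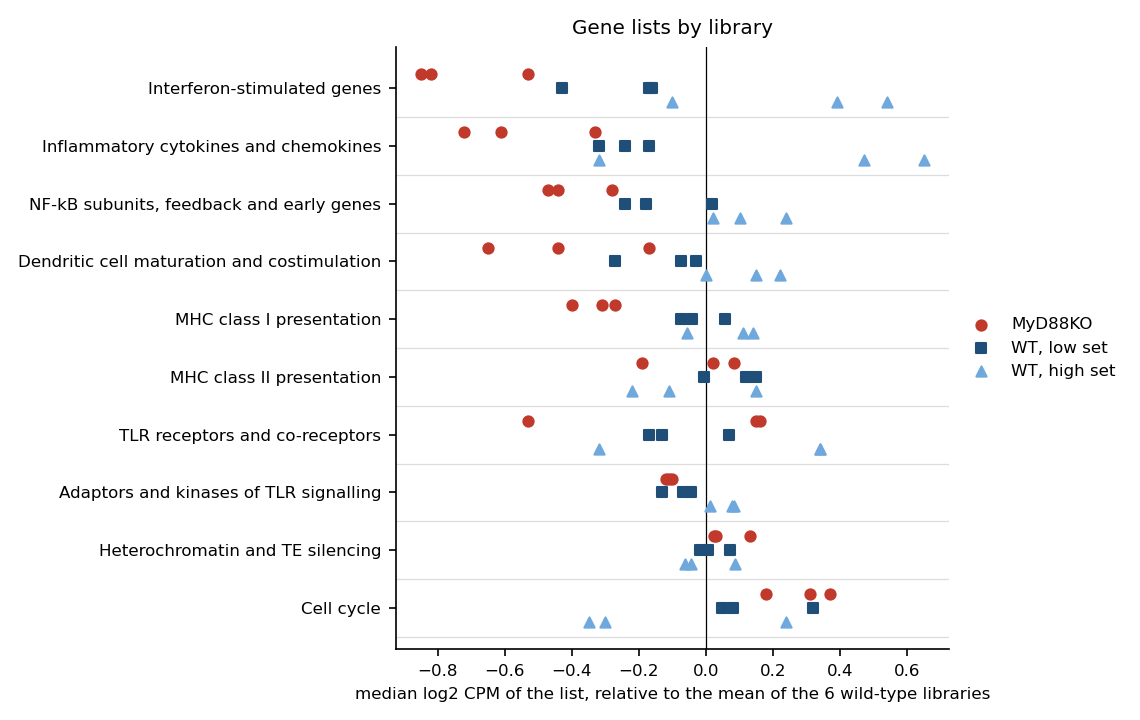
The median log2 CPM of each gene list in each unstimulated library, relative to the mean of the 6 wild-type libraries, over members with a mean of at least 1 CPM. MyD88KO libraries lie lowest for interferon-stimulated genes (-0.85 to -0.53), NF-kB genes, MHC class I and cytokines. For cytokines the groups nearly touch, at -0.33 in MyD88KO replicate 2 and -0.32 in low-set wild-type replicate 1. Cytokines range from -0.32 to 0.65 within the high set of wild type, and MHC class II is mixed.

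Growth, silencing and metabolic lists lay above 0 or near it. All 30 cell cycle genes lay above 0, with a median of 0.27 against all wild type, 0.16 against the low set and 0.27 between the wild-type sets, and none was called by edgeR or DESeq2 or reached an unadjusted p of 0.05. Of 22 cholesterol synthesis genes 18 lay above 0 (median 0.15), but the median was 0.0033 against the low set and 0.34 between the wild-type sets. Of 28 heterochromatin and transposon silencing genes 18 lay above 0 (median 0.037) and none was called by edgeR or DESeq2, with 1 lower at an unadjusted p of 0.05. Dnmt1, the maintenance DNA methyltransferase, differed by 0.34 ± 0.20 and Suv39h2, a histone H3 lysine 9 methyltransferase, by 0.39 ± 0.26. Glycolysis and HIF target genes (19) had a median of 0.065, scavenger receptors and lectins (21) 0.019, nucleic acid sensors (16) -0.053, chemokine receptors (19) -0.25, and interferon receptors, IRF and STAT factors (20) -0.15. Among these, Cd209a, a C-type lectin gene related to human DC-SIGN, had 32.5, 6.94 and 20 CPM in MyD88KO cells against 3.9 to 12.6 CPM in wild-type cells (1.37 ± 0.42, adjusted p = 0.43), and Jak2, a kinase of cytokine receptors, had 658, 517 and 610 CPM, below all wild-type libraries (733 to 896 CPM; -0.44 ± 0.13, adjusted p = 0.346).

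Cell-type markers were read in the same libraries, because in bulk RNA fewer cells of a type and less RNA per cell cannot be told apart. The defining dendritic cell genes were present in both genotypes, with Itgax (CD11c) at 517 ± 127 CPM in MyD88KO cells and 596 ± 117 CPM in wild-type cells (SD, n = 3 and 6) and Flt3 at 13 ± 7.6 and 14.5 ± 3.54 CPM. Macrophage markers were present as well: Itgam, which both cell types express, lay at 700 ± 186 and 687 ± 133 CPM in MyD88KO and wild-type cells, and the 16 macrophage and monocyte markers summed to 5602 to 12511 CPM and 6823 to 12363 CPM. The summed levels of dendritic cell markers (2641 to 3382 CPM in MyD88KO cells, 2780 to 3491 CPM in wild-type cells), neutrophil (794 to 1037 and 546 to 1186), T and NK cell (246 to 390 and 254 to 418), mast cell (30.4 to 46.2 and 20.4 to 38.4), B cell (25.8 to 51.4 and 35.5 to 68.3) and stromal markers (7.16 to 9.08 and 4.89 to 17.9) overlapped between the genotypes, and so did those of plasmacytoid dendritic cells. Erythroid and megakaryocyte markers summed to 69.8 to 92 CPM in MyD88KO cells and 113 to 277 CPM in wild-type cells and did not overlap, which came mostly from the platelet factor genes Pf4 (40.3 ± 19.3 and 74 ± 33.9 CPM) and Ppbp (33.4 ± 11.3 and 76.8 ± 38.9 CPM). Hbb-bt, Alas2 and Klf1 were below 1 CPM in both genotypes, and neither Pf4 nor Ppbp passed (adjusted p = 0.965 and 0.475). Of the 9 marker lists the only called genes were Xcr1 and Ccr9. The part of cell make-up in the shifts of the lists above was not tested.

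The genes called at rest were followed into the LPS time course, in other libraries of the same genotypes (3 MyD88KO libraries at each time, 5 wild-type libraries at 2 h and 6 at 4 h). In the same fit the genotypes differed in 1856 genes (12.8%) at 2 h and in 4107 (28.4%) at 4 h. At 2 h, 7 of the 9 genes passed the test again, and at 4 h 6 of them, all in the direction they had at 0 h. Tfcp2l1 stayed high, at 96 to 150 CPM in MyD88KO cells at 2 h and 147 to 166 CPM at 4 h, against 0.102 to 0.323 CPM and 0.112 to 0.365 CPM in wild-type cells. Glb1 differed by -0.53 ± 0.10 at 2 h and -0.88 ± 0.10 at 4 h, Ccr9 by -2.11 ± 0.44 and -2.03 ± 0.43, and Tgfbr2 by 1.3 ± 0.17 and 1.48 ± 0.16. For these 4 genes the test of the difference at 0 h against those at 2 h and 4 h did not pass (lowest adjusted p = 0.0755, Tgfbr2 at 4 h).

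For Xcr1, Cxcl1 and Myd88 the gap between the genotypes changed with time. In wild-type cells Xcr1 lay at 0.845 to 1.78 CPM at 0 h, 9.65 to 15.2 CPM at 2 h and 8.47 to 19.6 CPM at 4 h. In MyD88KO cells it lay at 6.89 to 9.46, 14 to 17.7 and 12.1 to 13.6 CPM at these times, so the genotypes overlapped once LPS had been added (0.33 ± 0.22 at 2 h and -0.21 ± 0.22 at 4 h; adjusted p = 0.355 and 0.518). The difference at 0 h exceeded that at 2 h by 2.42 ± 0.32 (adjusted p = 0.000286) and that at 4 h by 2.95 ± 0.32 (adjusted p = 1.25e-06). Cxcl1 went the opposite way. It reached 188 to 497 CPM at 2 h and 229 to 348 CPM at 4 h in wild-type cells, while MyD88KO cells held 0.671 to 2.55 CPM and 0.447 to 0.57 CPM, and the difference at 0 h was smaller than those at 2 h and 4 h by 4.38 ± 0.91 and 5.86 ± 0.98 (adjusted p = 0.0202 and 0.000528). Myd88 itself was at 93.7 to 115 CPM in MyD88KO cells and 269 to 323 CPM in wild-type cells at 2 h, and at 83.3 to 97.6 and 384 to 461 CPM at 4 h. Its difference widened to -1.53 ± 0.091 and -2.19 ± 0.093, which differed from that at 0 h (adjusted p = 0.000286 and 1.61e-09). H2-Q4 no longer passed at either time (-0.16 ± 0.12 and -0.20 ± 0.12), and Camk2b passed at 2 h (2.43 ± 0.60, adjusted p = 0.00716) and not at 4 h (1.11 ± 0.57), but neither gene's change over time passed its own test.

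Transposable elements (TEs), the retroviral and other mobile repeats whose transcripts were the subject of the series, took a similar share of all counts in both genotypes. Repeats of these classes (LINE, SINE, LTR, DNA and rolling-circle) held 4.332%, 3.927% and 4.133% of gene and TE counts in MyD88KO libraries, 4.195%, 3.322% and 4.593% in the low set and 4.59%, 4.9% and 4.567% in the high set. The MyD88KO mean was 4.13% ± 0.203, against a wild-type mean of 4.36% ± 0.556 (SD, n = 3 and 6), a difference of -0.23 percentage points that was smaller than the spread of wild-type libraries (two-sided exact permutation p = 0.524, of which 0.0119 is the smallest possible). Against the low set the difference was 0.094 percentage points (exact p = 0.9, where 0.1 is the smallest possible). LINE, SINE, LTR and DNA shares gave exact p-values of 0.262, 0.476, 0.929 and 0.381.

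Whether a TE subfamily passed between the unstimulated genotypes depended on the scaling. Relative to genes, of 945 tested none was called by edgeR (background 0%) or DESeq2, with 64 (6.77%) at an unadjusted p of 0.05. On that scale 801 of the 945 lay below 0, with a median of -0.20. When the subfamilies were scaled to each other 2 were called higher (IAPLTR2_Mm and RLTR4_MM-int), the median was -0.021 and 515 lay below 0. Against the low set, still relative to genes, none of 947 was called, the median was -0.026 and 573 lay below 0. The highest was RLTR4_MM-int, the internal part of a murine leukaemia virus-like endogenous retrovirus (432 copies), at 1053, 542 and 698 CPM in MyD88KO cells, against 157 to 369 CPM with no overlap in wild-type cells (1.49 ± 0.36, unadjusted p = 0.000261, adjusted p = 0.247; 1.71 against the low set). Its long terminal repeat RLTR4_Mm (239 copies) had 129, 84 and 114 CPM in MyD88KO cells, against 49 to 69.6 CPM in wild-type cells (0.93 ± 0.27, adjusted p = 0.552). MuLV-int, another internal part of murine leukaemia virus type, had 464, 310 and 385 CPM in MyD88KO cells against 195 to 334 CPM in wild-type cells (0.54 ± 0.25, adjusted p = 0.552). These 3 lay above 0 on all the scalings named. At 2 h and 4 h all 3 were called higher in MyD88KO cells, RLTR4_MM-int by 1.89 ± 0.38 and 2.16 ± 0.36 (adjusted p = 0.00133 and 6.35e-05), although most of the subfamilies called at those times were lower (152 of 157 and 228 of 239, which is 16.1% and 24.1% of all tested, beside 16.6% and 25.3% called in all).

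IAPLTR2_Mm, a terminal repeat of the intracisternal A particle, had 16, 13.4 and 13.2 CPM in MyD88KO cells and 7.97 to 12.5 CPM in wild-type cells (0.37 ± 0.17, adjusted p = 0.552; 0.54 against the low set, unadjusted p = 0.000797, adjusted p = 0.377). MamGypLTR2c, among the 4 highest, had 0.983, 1.28 and 3.22 CPM in MyD88KO cells and 0.35 to 2.24 CPM in wild-type cells (0.77 ± 0.42, adjusted p = 0.552), and the groups overlapped. IAPEz-int, the internal part of the intracisternal A particle, had 238, 219 and 189 CPM in MyD88KO cells and 124 to 207 CPM in wild-type cells (0.24 ± 0.17, adjusted p = 0.552). The lowest were ERVB2_1-I_MM-int (-1.60 ± 0.80), Ricksha_c (-1.21 ± 0.61), IAPA_MM-int (-1.04 ± 0.45) and RLTR11C_MM (-1.03 ± 0.43), all with an adjusted p of 0.552. RLTR11C_MM shows the wild-type sets apart, at 16.8, 8.83 and 13.2 CPM in MyD88KO cells, 20.1, 10.9 and 22.6 CPM in the low set and 48.4, 42.2 and 14.9 CPM in the high set.

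Single copies were tested on the scale of genes. Of 64924 copies tested 102 were called (0.157%), 72 higher (0.111%) and 30 lower (0.0462%). All 102 had the same sign against the low set, where 76 of them were among 78 called (0.12%). That comparison uses the same MyD88KO libraries and part of the same wild-type libraries, so the agreement was largely built in. Against all wild type, 67 copies were called without MyD88KO replicate 1. The table numbers the copies and gives no positions, so the gene or region of a copy is not analysed here, and reads of near-identical copies may be split between them. Of the 102, 28 belong to RLTR4_MM-int (16 of 85 tested), RLTR4_Mm (11 of 43) and MuLV-int (1 of 21), and all 28 were higher in MyD88KO cells, by 2.04 to 10.16. A further 5 were IAPEz-int copies (of 258 tested), also all higher. These directions were partly set by the filter of 10 counts in 3 libraries. A copy near 0 outside MyD88KO cells could be tested only where MyD88KO libraries held its counts, and the reverse applies to falls. At 0 h, 3 of the 28 had 0 counts in all wild-type libraries. Of the 102, 16 had 0 counts in all wild-type libraries and 15 in all MyD88KO libraries.

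The 28 murine leukaemia virus-type copies together had 138, 205 and 510 CPM in the 3 MyD88KO libraries (lowest to highest), against 7.43 to 23 CPM in wild-type libraries, values that follow from how the copies were chosen. The libraries of later times were not in the contrast that called the copies, but they shared its count filter and its fit. There the copies had 239 to 912 CPM at 2 h and 276 to 998 CPM at 4 h in MyD88KO cells, against 8.05 to 21.2 CPM and 13.4 to 57.2 CPM in wild-type cells. The 9 libraries labelled TrifKO held 8.37 to 43.6 CPM over the 3 times. All tested and untested copies of these 3 names together held 936 to 1646 CPM in MyD88KO cells and 401 to 773 CPM in wild-type cells at 0 h. The MyD88KO libraries differed among themselves, as copy 4334319 of RLTR4_MM-int had 8478, 1496 and 1969 counts in replicates 1 to 3 against 0 to 6 counts in wild-type libraries. Copy 4334317 of RLTR4_Mm had 1614, 234 and 445 counts against 0 to 2, and copy 2369604 of RLTR4_MM-int had 7896, 978 and 2851 counts against 3 to 10.

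**Figure D4:**
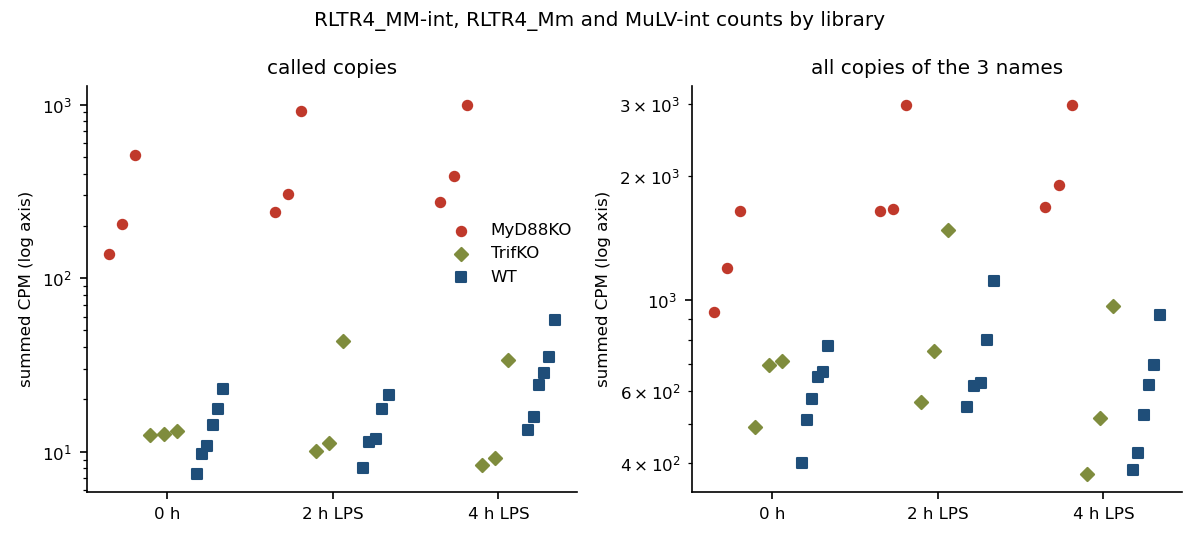
Summed CPM on a log axis of RLTR4_MM-int, RLTR4_Mm and MuLV-int copies at 0 h, 2 h and 4 h, for the 28 copies called at 0 h (left) and for all copies of the 3 names (right), with 1 point per library in order of value. On the called copies every MyD88KO library (138 to 998 CPM) is above every other library (at most 57.2 CPM) at every time.

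Many called copies had neighbouring numbers. Of the 102, 62 fell into 7 runs of at least 4 called copies, each within 100 numbers of the next. The largest run, 19 copies of mixed LINE, SINE and LTR names numbered 210724 to 210745, had 3875, 2123 and 2571 counts in MyD88KO libraries and 0 to 6 counts in wild-type libraries. Its copies include MTB 210739, with 601, 277 and 411 counts in MyD88KO libraries and 0 in all 6 wild-type libraries, ID_B1 210743 with 321, 182 and 228 counts, MTEa 210738 with 213, 121 and 161 counts and L1Md_F2 210745 with 200, 131 and 126 counts, the last 3 also at 0 in all wild-type libraries. A run of 6 RLTR4 copies from 4334316 had 19720, 3404 and 4808 counts in MyD88KO libraries against 8 to 26 in wild-type libraries, and 4 RLTR4 and MuLV-int copies from 3346276 had 2591, 307 and 1324 counts in MyD88KO libraries against 1 to 11 in wild-type libraries. In contrast to these, the 6 RLTR4 copies from 2138331 were transcribed in both genotypes, at 5215, 2819 and 4903 counts in MyD88KO libraries and 564 to 1643 in wild-type libraries.

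Copies that fell formed runs as well. The 11 copies numbered 4676732 to 4676810 hold 7 lower and 4 higher ones, and 3 Lx3_Mus copies in it (4676767, 4676768 and 4676770) had 0 counts in all MyD88KO libraries, against 20 to 112 counts in each wild-type library. The 12 copies from 4676355 hold 10 higher and 2 lower ones. Another set of low copies was shared with other libraries. The 4 SINE copies from 2320669, among them B3 2320670, had 0, 0 and 2 counts in MyD88KO libraries and 3 to 6 counts in the 3 libraries labelled TrifKO. Wild-type libraries had 260 to 404 counts, except replicate 2 of the high set with 3. RMER13A2 2321392 and Lx8 2321391 had 0 counts in all MyD88KO libraries, in the 3 labelled TrifKO and in that same wild-type library, against 153 to 215 and 128 to 193 counts in the other 5.

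**Figure D5:**
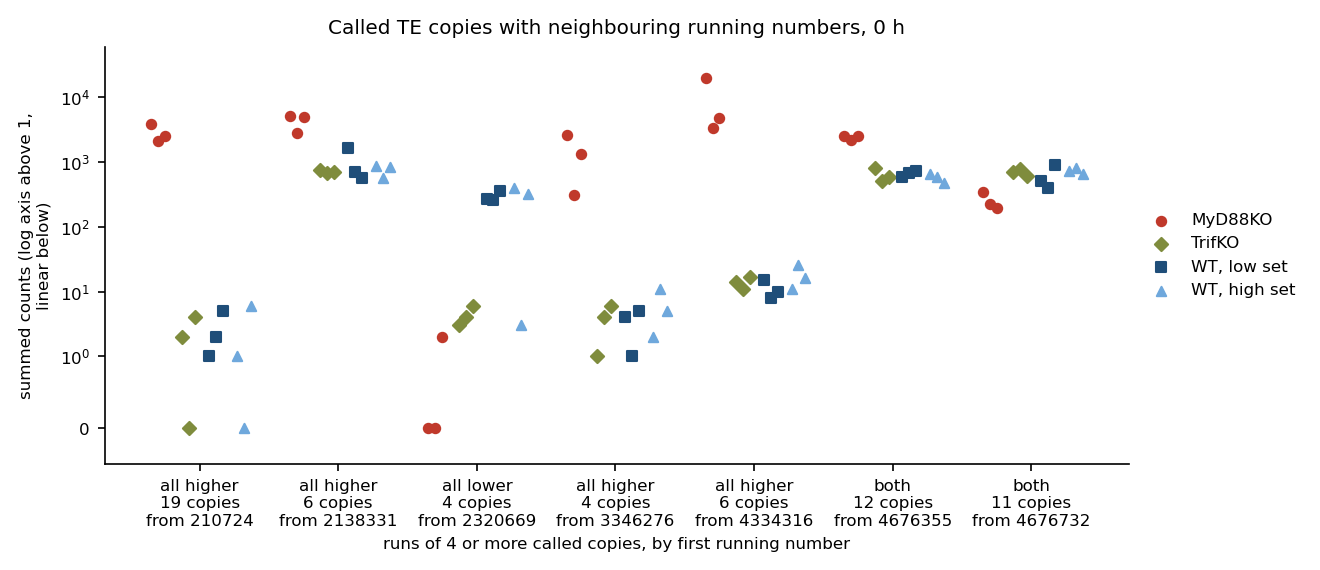
Summed counts per unstimulated library for the 7 runs of called copies, on an axis that is logarithmic above 1 and linear below. The run from 210724 holds 2123 to 3875 counts in MyD88KO libraries and at most 6 in the others, while the run from 2320669 is near 0 in MyD88KO, TrifKO and 1 high-set wild-type library.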

How the data were processed

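Gene and repeat values are raw counts as deposited by the authors, made with STAR, HOMER and DESeq2 on mm10, per the submitters' processing notes, from polyA TruSeq Stranded libraries, per the labels; versions are not given in the sources used here. All 35 libraries of experiment 3 were fitted together with edgeR 4.0.16 (R 4.3.3): filterByExpr, TMM, quasi-likelihood F tests, 1 term per group (or per group and library set), Benjamini-Hochberg adjustment over all features, threshold 0.05. SE is the log2 fold change over the root of F. Repeats were scaled by gene totals and gene TMM factors, and copies needed 10 counts in 3 libraries. The code was tested on simulated data.

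Cohort numbers paired MyD88KO with low-set wild-type libraries. Over 11143 autosomal genes their deviations correlated at 0.596, 0.376 and 0.633 within cohorts and at -0.518 to 0.039 across cohorts. Deviations from a group mean offset each other, so the values across cohorts are not separate from those within. With high-set wild type the pairing was not clear, at 0.269, 0.112 and 0.539 within cohorts and -0.477 to 0.446 across. Wild-type libraries of the 2 sets correlated at 0.392, -0.257 and 0.182 within cohorts. For single genes the block is reported where it moved a call against the low set (Ccr9 and Tmem158). Against all wild type it called 16 genes, 5 higher and 11 lower, and those beyond the 9 of the fit reported are not listed. Genes were placed with GENCODE vM21 (GRCm38).

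Named were Myd88, every called gene, the 4 largest differences of each list with a mean of at least 1 CPM (those of known function), core TLR genes, neighbours within 2 Mb, the 4 highest and lowest subfamilies with at least 50 counts, and the 6 largest copies each way. Members and the 29 lists were chosen with earlier results of these data known. Other names were chosen after their values were seen. Alternatives were DESeq2 1.42.0, no filter, fewer groups in the fit, the block, a set term, summed wild-type libraries and libraries left out in turn. 1 gene that the rule names is not reported here.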

Additional observations from a re-analysis of the deposited data

Results flagged for a closer look

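Of 79 groups of 6 unstimulated wild-type values that were screened for a library far from the rest, 3 were flagged, and chance flags about 1 in 20 groups. Cxcl1 was at 2.96 CPM in the wild-type high-set library of cohort 1, with the next highest at 1.14 CPM. Traf6 was at 57.8 CPM in the wild-type low-set library of cohort 2, with the next lowest at 72.3 CPM. IAPEz-int was at 124 CPM in that same library, with the next lowest at 187 CPM.

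Among 22 tests of whether a difference between the genotypes at 0 h differed from that at a later time, 6 passed (edgeR quasi-likelihood test). On the log2 scale, the MyD88KO difference at 0 h minus that at 2 h was 2.42 for Xcr1, 4.38 for Cxcl1 and 0.88 for Myd88. The same value against 4 h was 2.95 for Xcr1, 5.86 for Cxcl1 and 1.54 for Myd88. For Xcr1 it reflects a gap at 0 h that was not seen later, and for Cxcl1 and Myd88 a gap that was wider later.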

How the results depend on the processing

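Against all wild type, the count of called genes, 9 in the fit reported, was 43 with DESeq2 (38 lower; 7 of the 9 remained, and the other 2 had no adjusted p), 16 with the cohort number as a replicate block (all 9 remained), 4 with only the compared groups in the fit and 4 with the block added to that, 5 with the TrifKO libraries left out and 206 against the high set. Leaving out 1 library at a time gave 3 to 9. Against the low set, 6 in the fit reported, it was 10 with DESeq2, 8 with the block, 1 with only the compared groups and 1 with the block added to that, and 3 to 6 with 1 library left out. Called neighbours within 20 Mb of Myd88, 4 and 3 in those comparisons, were 2 with only the compared groups (also with the block) and 1 to 3 with 1 library left out against all wild type. In the comparison with the low set they were 5 with DESeq2, 5 with the block, 0 with only the compared groups (also with the block) and 1 to 3 with 1 library left out. Called subfamilies were 2, IAPLTR2_Mm and RLTR4_MM-int, when scaled to each other, and called copies were 67 to 91 with 1 library left out and 126 with the block. The causes were not tested.

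Among the directions that reversed was that of the TE share, which was 0.094 percentage points against the low set. With a set term Tlr9 was at 0.052 and Ticam1 at -0.05, and Bmpr1a was at 0.034 against the high set. With 1 library left out, the comparison with all wild type gave -0.017 to 0.29 for Tlr4, -0.11 to 0.12 for Ticam1 and -0.092 to 0.018 for Irak4. The comparison with the low set gave -0.85 to 0.13 for Tlr2, -0.16 to 0.32 for Tlr9, -0.10 to 0.17 for Ticam1, -0.087 to 0.037 for Irak4, -0.055 to 0.56 for Suv39h2 and -0.18 to 0.10 for Ciita. The medians of the interferon-stimulated and cytokine lists stayed below 0 under all alternatives run, at -1.06 to -0.44 and -0.98 to -0.39 against all wild type. In data simulated for the comparison with all wild type (14370 genes), 56% of rises and 69.4% of falls of 1 on the log2 scale were called, and 90% and 89.8% of those of 2, so differences of 1 can go uncalled with 3 MyD88KO libraries.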

Other observations

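Ide, the gene of insulin-degrading enzyme, was chosen after its values were seen. It had 43.5, 45.8 and 52.2 CPM in MyD88KO libraries, 41.7, 47.3 and 42.5 CPM in the libraries labelled TrifKO, and 65.9, 67.4, 78, 88.6 and 89.1 CPM in 5 wild-type libraries, while replicate 2 of the wild-type high set had 45.7 CPM. That wild-type library is also the one in which the repeat runs from 2320669 and around 2321391 were near 0, as they were in the MyD88KO and TrifKO libraries. The test of Ide over all 6 wild-type libraries gave -0.62 ± 0.22 (edgeR adjusted p = 0.588).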
